A study of Mus musculus with 28 samples.

Results

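The subject is the set of transcripts listed in a comparison of hair follicle stem cells from 24-month-old and 6-month-old mice. The members are all genes in the authors' deposited table of RNA results, which lists genes up to an adjusted p of 0.1. There are 597 of them, among 14286 genes over which the authors' adjustment was made. That total was recovered from the ratio of adjusted to raw p-values and was the same whole number for 279 of the 560 genes whose p was above 1e-06.

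Total RNA came from freshly isolated cells of the skin of mice whose strain is labelled 132-C67BL/6J, with 3 samples at 6 months (young) and 3 at 24 months (old). Both ages carried the same strain label, and no genetic change or treatment is named for either. The cells were released with trypsin from separated epidermis and sorted for Cd34 together with alpha6 integrin, and the RNA was amplified with the Ovation RNA-Seq System V2 before Nextera XT library preparation. The series also holds ATAC-seq (4 libraries per age), H3K27me3 ChIP-seq (3 per age), and H3K4me3 and Pol2 ChIP-seq (2 per age each) of such cells, which are used below only at the promoters and peaks of the listed genes.

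Hair follicle stem cells rest in the bulge of the follicle and are activated at the start of each hair cycle, when Wnt, Hedgehog and FGF signals from the hair germ and the dermal papilla reach them. Their identity is held by transcription factors of the Sox, Lhx, Tcf and Nfatc families. Adhesion to the basement membrane through integrins keeps them in the niche, and their progeny move through the outer root sheath into the lineages that build the hair shaft.

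The authors' deposited table has no values per sample. For each gene it gives 1 mean normalized count over the libraries, 1 log2 fold change of old over young, a standard error (SE) and the p-values of a Wald test, which the submitters' processing notes credit to DESeq2. The spread between the 3 samples of an age therefore enters only through the SE, which ran from 0.104 to 0.229. The depth of the RNA libraries is unknown, since the table holds no counts per sample. The direction of every RNA change below rests on the header of that table, which names old against young. The sort markers Cd34 and Itga6 are not among the listed genes (0 of 2), and neither are 6 sex-linked genes looked for (0 of 6), so the table holds no level of them. A gene that is not listed had an adjusted p above 0.1 or was not tested, and these cannot be told apart here.

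At an adjusted p under 0.05, which is what "called", "rose" and "fell" mean below, 339 genes were called, 2.37% of the genes tested. Of these, 227 rose with age (1.59% of the genes tested) and 112 fell (0.784%). The median log2 fold change in the authors' deposited table was 0.57 among genes that rose and −0.72 among genes that fell. A log2 size of at least 1 was reached by 7 genes that rose and 11 that fell. Genes that rose had a median deposited mean of 1798 normalized counts, against 692 for genes that fell. With ribosomal protein genes left out, 185 rose and 112 fell. Of the 597 listed genes 38.0% rose, 18.8% fell and 60.5% had a positive value. The counts of each list below are out of its listed genes and are to be read against these shares; they are descriptions, and no list was tested. The values just inside the threshold belonged to Tbca (adjusted p 0.0491), Ide (0.0494) and Tbc1d31 (0.0499) in the authors' deposited table, and those just outside to Pfdn5 (0.0508), St6galnac5 and Cct4 (both 0.0518).

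**Figure D1:**
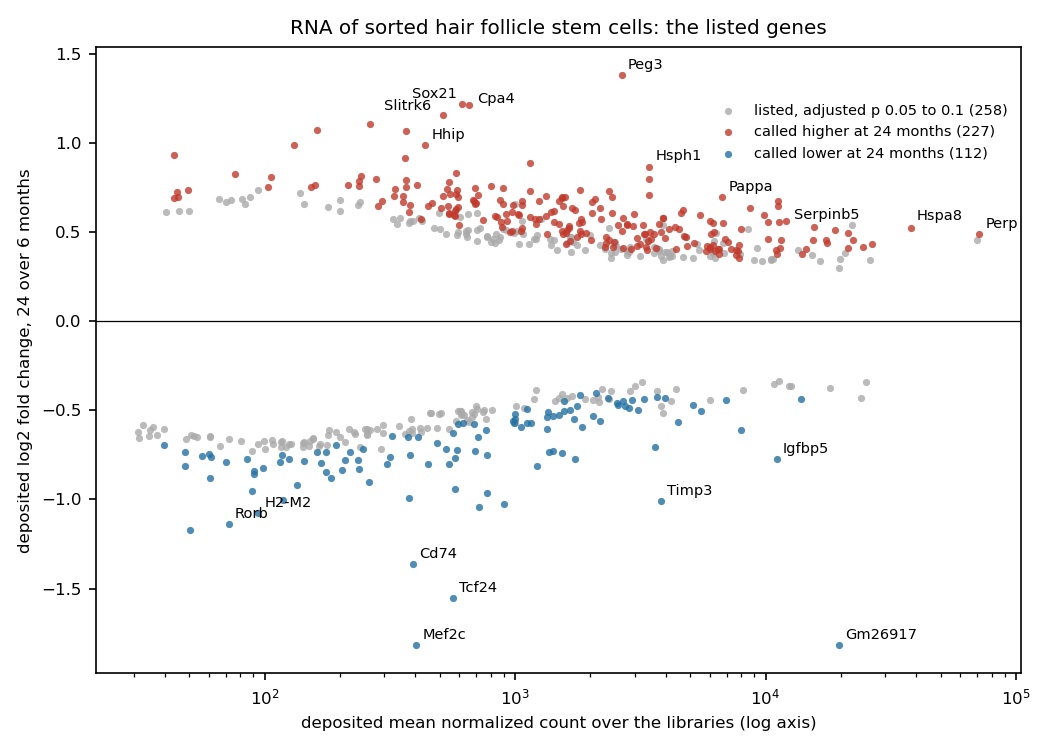
Each point is 1 of the 597 listed genes, with the deposited mean normalized count on a log axis and the deposited log2 fold change (24 over 6 months) on the vertical axis. The empty band around 0 comes from the listing limit. Gm26917 stands alone at a high mean and a log2 fold change of −1.82, and the genes that rose reach higher means than the genes that fell.

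The strongest increase was that of Peg3, a paternally expressed imprinted gene for a zinc finger protein. Its RNA was 2.6-fold higher in old cells (log2 fold change 1.38, SE 0.13, adjusted p listed as 0) in the authors' deposited table. Next came Sox21, an HMG-box transcription factor of the hair shaft lineage (2.33-fold, log2 1.22, SE 0.17), and Cpa4, a secreted carboxypeptidase (2.31-fold, log2 1.21, SE 0.20), as the authors' deposited table gives them. Several of the next genes act at the cell surface. In the authors' deposited table, Slitrk6, a leucine-rich repeat membrane protein of neurons and the inner ear, rose by 1.16 (SE 0.18), and Igsf9b, an immunoglobulin-domain adhesion protein of synapses, by 1.07 (SE 0.23). The tetraspanin Tspan8 rose by 0.99, the neuronal adhesion molecule Nrcam by 0.89 and the calcium-activated potassium channel Kcnn3 by 0.83 in the authors' deposited table. Galnt14, which starts mucin-type O-glycosylation, rose by 1.11, and Nptx1, a secreted pentraxin of synapses, by 1.07, again from the authors' deposited table. The list of the 15 largest increases is completed in the authors' deposited table by Hhip (0.99), Serpinb3b (0.93), Mns1 (0.92), Hsph1 (0.87) and the clone-named 4930458D05Rik (0.83).

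The largest decreases were those of Gm26917, a noncoding gene described further below, and Mef2c, a MADS-box transcription factor. The RNA of Mef2c was 3.52-fold higher in young cells (log2 −1.82, SE 0.22) in the authors' deposited table. Tcf24, a basic helix-loop-helix factor, fell to a log2 value of −1.55 (SE 0.20) in the authors' deposited table, and Rorb, an orphan nuclear receptor, to −1.14 (SE 0.22). Cd74, the invariant chain that guides MHC class II molecules, had a log2 fold change of −1.36 (SE 0.23), and H2-M2, a nonclassical class I molecule, −1.08 (SE 0.22), in the authors' deposited table. As bulk samples were sequenced, fewer cells of a type and less RNA per cell cannot be told apart for Cd74 or any other gene here. The authors' deposited table further gives −1.04 for the secreted guidance cue Sema3d, −1.02 for the transcription factor Ebf1 and −1.01 for Timp3, an inhibitor of matrix metalloproteinases. Rab3il1, an exchange factor for Rab GTPases, had −1.01, Skint3, a butyrophilin-like membrane protein, −0.99, and the presynaptic scaffold Pclo −0.94 in the authors' deposited table. Tmem47 (−0.96), Iqck (−0.96) and the clone-named F830045P16Rik (−1.17) are the others of the 15 largest decreases there.

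**Figure D2:**
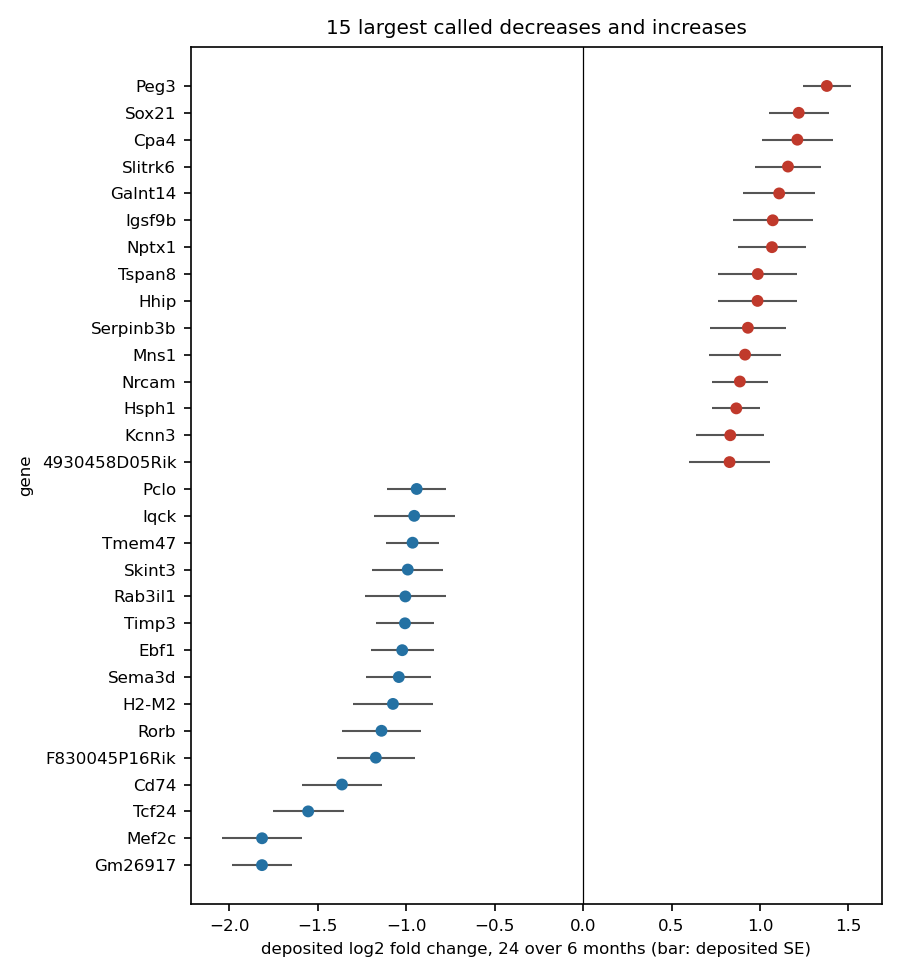
Points give the deposited log2 fold change (24 over 6 months) of the 15 called genes with the largest increases, in red, and of the 15 with the largest decreases, in blue, and bars the deposited SE. Peg3 at 1.38 has the highest value, and Mef2c and Gm26917, both at −1.82, the lowest.

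The promoters of 5 of these genes are printed as examples whose H3K4me3, described at the end, ranked near the low end (Peg3, Sox21, Hhip) or the high end (Mef2c, Rorb) of all promoters. They were chosen after their values were seen. The sequences run 5′ to 3′ on the gene's strand from 250 bases before to 50 bases after a start site and come from RefSeq (GRCm38.p6). Peg3 lies at chr7:6730370-6730669 (minus strand), Sox21 at chr14:118236981-118237280 (minus), Hhip at chr8:80057959-80058258 (minus), Mef2c at chr13:83523406-83523705 (plus; 1 of 3 start sites in the table, the one inside the H3K4me3 peak) and Rorb at chr19:19111147-19111446 (minus; 1 of 2 start sites). Capitals mark the GC box (GGGCGG or CCGCCC), the CCAAT box (CCAAT or ATTGG) and the cyclic AMP response element core (CRE, TGACGTCA), searched on both strands.
Peg3: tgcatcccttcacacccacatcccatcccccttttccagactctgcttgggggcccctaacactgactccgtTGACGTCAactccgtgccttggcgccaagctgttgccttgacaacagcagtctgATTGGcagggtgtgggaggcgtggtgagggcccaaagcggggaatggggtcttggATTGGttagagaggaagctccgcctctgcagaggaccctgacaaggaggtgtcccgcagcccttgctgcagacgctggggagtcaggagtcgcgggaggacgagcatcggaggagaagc
Sox21: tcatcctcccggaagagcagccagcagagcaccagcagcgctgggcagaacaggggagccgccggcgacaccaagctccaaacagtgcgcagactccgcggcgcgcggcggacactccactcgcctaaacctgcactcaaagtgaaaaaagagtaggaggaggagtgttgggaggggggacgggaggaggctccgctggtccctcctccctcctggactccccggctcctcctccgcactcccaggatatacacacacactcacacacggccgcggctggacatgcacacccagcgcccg
Hhip: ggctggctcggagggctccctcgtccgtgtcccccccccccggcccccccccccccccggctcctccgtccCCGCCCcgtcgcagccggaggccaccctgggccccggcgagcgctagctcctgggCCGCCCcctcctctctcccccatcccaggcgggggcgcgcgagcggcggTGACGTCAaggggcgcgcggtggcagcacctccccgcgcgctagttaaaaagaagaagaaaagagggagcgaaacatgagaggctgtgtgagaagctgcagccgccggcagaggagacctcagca
Mef2c: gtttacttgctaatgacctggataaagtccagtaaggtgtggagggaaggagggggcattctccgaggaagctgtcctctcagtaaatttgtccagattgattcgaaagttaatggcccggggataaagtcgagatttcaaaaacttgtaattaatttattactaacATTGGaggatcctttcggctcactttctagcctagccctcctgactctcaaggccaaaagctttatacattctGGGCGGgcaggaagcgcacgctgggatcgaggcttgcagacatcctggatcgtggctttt
Rorb: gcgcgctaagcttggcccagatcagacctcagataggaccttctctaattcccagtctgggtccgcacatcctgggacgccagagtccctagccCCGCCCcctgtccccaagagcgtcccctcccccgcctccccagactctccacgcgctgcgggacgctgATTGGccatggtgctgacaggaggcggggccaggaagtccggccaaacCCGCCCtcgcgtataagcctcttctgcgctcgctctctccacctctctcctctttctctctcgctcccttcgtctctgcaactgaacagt
The Peg3 sequence holds 1 CRE core, 2 CCAAT boxes and 13 CpG dinucleotides. That of Hhip holds 1 CRE core, 2 GC boxes and 30 CpG. Sox21 has none of the marked motifs and 22 CpG. Mef2c has 1 GC box, 1 CCAAT box and 10 CpG, and Rorb has 2 GC boxes, 1 CCAAT box and 20 CpG. Over 1 promoter per symbol, a CRE core was found in 12 of the 167 matched genes that rose (7.19%), in 0 of the 77 matched genes that fell and in 1.88% of all 27025 promoters. The GC box was found in 58.1% of promoters of genes that rose, 67.5% of those that fell and 35.9% of all. The E-box CACGTG was found in 11.4%, 2.60% and 7.24%. A median promoter of a gene that rose held 21 CpG, of a gene that fell 19, and of all symbols 7. CpG and GC boxes were thus more frequent than over all promoters in both directions. The set of all promoters includes genes that were not tested for RNA, so it is not a matched background. These are matches of letters only, and no test was made of them.

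Genes of protein synthesis formed the most numerous group. The authors' deposited table holds 48 genes for cytosolic ribosomal proteins, all with a positive value, and 42 of them rose (median log2 fold change over the 48 genes 0.52). Among the highest values there were 0.71 for Rps29, 0.70 for Rpl36a and 0.70 for Rpl38, and the lowest was 0.34 for Rpl6, which was not called. These genes have many processed pseudogenes, so the split of reads between copies is uncertain. Of 4 listed pseudogenes named for such genes or for Tpt1, the authors' deposited table has 3 called higher, Rpl38-ps2 (0.81), Rps25-ps1 (0.65) and Tpt1-ps3 (0.42), beside Rps6-ps4 (0.49), which was not called. Of 12 listed translation factors 10 rose. The authors' deposited table gives 0.67 for Eef1e1, a scaffold protein of the multi-tRNA synthetase complex, 0.60 for the elongation factor subunit Eef1b2, 0.53 for the translationally controlled protein Tpt1 and 0.42 for the initiation factor subunit Eif3m. Pabpc4, a cytoplasmic poly(A)-binding protein, was the 1 translation factor that fell (−0.45 in the authors' deposited table).

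Chaperones fold new proteins and refold damaged ones. Among 18 listed chaperone and heat shock genes, 9 rose and 0 fell at an adjusted p under 0.05 by DESeq2 (2 had a negative value). In the authors' deposited table the largest values of called chaperones belonged to Hsph1, a nucleotide exchange factor for Hsp70 (0.87, SE 0.14), Hspe1, the mitochondrial Hsp10 (0.76), Serpinh1, the collagen chaperone (0.58), and Stip1, which links Hsp70 with Hsp90 (0.54). Hspa8, the constitutive Hsp70 and the called gene with the second highest deposited mean, rose by 0.52, and the ER chaperones Hsp90b1 and Pdia6 rose by 0.46 and 0.46 in the authors' deposited table. The stress-inducible Hspa1a (−0.43) and Bag6 (−0.38) had negative values there and were not called.

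Nuclear genes for mitochondrial proteins came next. Of 13 listed genes for the respiratory chain and ATP synthase, 7 rose and 1 fell, and 12 had a positive value, where 60.5% of all listed genes did. The authors' deposited table gives 0.82 for Ndufs6 and 0.60 for Ndufb5, both complex I subunits, 0.65 for the complex III subunit Uqcrh and 0.54 for the ATP synthase gamma subunit Atp5c1. Ndufa4l2, a hypoxia-inducible relative of a complex IV subunit, went the other way (−0.83 in the authors' deposited table). All 4 listed genes of mitochondrial ribosomes and import rose, with 0.67 for Mrpl57, 0.65 for the inner membrane translocase Timm22, 0.63 for Mrps7 and 0.60 for Mrps14 in the authors' deposited table.

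Metabolic enzymes moved in both directions. In the authors' deposited table Mdh1, cytosolic malate dehydrogenase, rose by 0.55, while the glycolytic enzyme Gapdh (−0.36) and the pyruvate dehydrogenase kinase Pdk1 (−0.44) were not called. Psat1, of serine synthesis, rose by 0.67 and Rrm2, a ribonucleotide reductase subunit, by 0.69, while Shmt2, the mitochondrial serine hydroxymethyltransferase, had −0.48 in the authors' deposited table. Of 6 listed lipid genes 3 rose and 2 fell: the authors' deposited table gives 0.70 for Apoo, 0.67 for the efflux transporter Abcg2 and 0.51 for the phospholipase Plcb4, against −0.73 for the epidermal lipoxygenase Alox12e and −0.73 for the lipid transporter Abca7. The prostaglandin-degrading dehydrogenase Hpgd was higher (0.80) and the thromboxane synthase Tbxas1 lower (−0.81) in the authors' deposited table, both named after their values were seen. Of 7 listed redox genes 2 were called, Txndc17 (0.74) and the peroxiredoxin Prdx4 (0.64), both higher in the authors' deposited table.

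Signals and their receptors came next. In the Hedgehog pathway, Hhip, which binds and sequesters Hedgehog ligands, rose by 0.99 (SE 0.22) and Ptch1, the Hedgehog receptor, by 0.56 (SE 0.14) in the authors' deposited table, and both genes are known transcriptional targets of the pathway. The co-receptor Cdon had 0.40 in the authors' deposited table and was not called. Among FGF and receptor tyrosine kinase genes, 3 of 5 listed rose and 1 fell. The authors' deposited table gives 0.74 for the EGF receptor ligand Tgfa, 0.66 for the neurotrophin receptor Ntrk2 and 0.45 for the FGF receptor Fgfr2. Igfbp5, a secreted binding protein of insulin-like growth factors with a deposited mean of 11086 normalized counts, had −0.78 (SE 0.14) in the authors' deposited table. Pappa, a protease that cleaves IGF-binding proteins, rose by 0.69 in the authors' deposited table and belongs to no list.

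Other pathway lists were nearly empty. Skil, a repressor of TGF-beta signalling, rose by 0.38, and Rgma, a BMP co-receptor, had −0.48 in the authors' deposited table. The only listed Wnt gene, the receptor Ror2, had 0.54 there and was not called, and the lists for Notch, YAP-TEAD targets and iron had 0 listed genes. Within cells, both called regulatory subunits of protein kinase A rose, Prkar2b by 0.79 and Prkar1a by 0.40, as did the phosphodiesterase Pde4b (0.58) in the authors' deposited table. The inositol phosphatase Inpp5a (−0.61), the lipid kinase Pik3c2b (−0.59) and the splicing kinase Clk3 (−0.57) fell in the authors' deposited table. Of inflammatory signalling genes, Socs6 fell (−0.57), while Stat2 (−0.56) and Tnfrsf10b (0.60) were not called in the authors' deposited table.

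Matrix genes were called in both directions. Tnc, which encodes the matrix protein tenascin C, rose by 0.65, and P4ha1, a collagen prolyl hydroxylase, by 0.52 in the authors' deposited table. Tnxb, tenascin X, fell (−0.80), as did Smoc2, a matricellular protein of basement membranes (−0.52), in the authors' deposited table. The collagen gene Col1a2 (−0.39), the crosslinking enzyme Loxl1 (−0.64) and Vit (−0.57) had negative values there and were not called. Protease inhibitors of the serpin B clade rose: the authors' deposited table gives 0.93 for Serpinb3b, 0.49 for Serpinb5 (maspin) and 0.43 for Serpinb8. Serpinb3b belongs to a family of near-identical copies, so its share of reads is uncertain, and its deposited mean was only 43.6 normalized counts. Against these stood Timp3 (−1.01, with a deposited mean of 3831) and Adamtsl5 (−0.56) in the authors' deposited table. Of 6 listed adhesion genes 3 rose, Igsf9b, Tspan8 and the claudin Cldn12 (0.56), and 1 fell, Cldn8 (−0.57), in the authors' deposited table. Perp, a desmosomal p53 target and the listed gene with the highest deposited mean (71228 normalized counts), rose by 0.49 (SE 0.11) in the authors' deposited table.

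Genes known from neurons were called in both directions. Of 14 listed axon guidance and synaptic genes 4 rose and 4 fell. Those that rose in the authors' deposited table were Slitrk6, Nptx1, the ephrin receptor Epha4 (0.63) and the vesicle fusion protein Vamp4 (0.47). Those that fell were the semaphorins Sema3d (−1.04) and Sema4b (−0.44), Pclo (−0.94) and the calcium sensor Syt3 (−0.80), from the authors' deposited table. Among ion channels the authors' deposited table has Kcnn3 higher, and the kainate receptor Grik1 (−0.81) and the calcium channel Cacna1e (−0.79) lower.

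Transporters and genes of vesicle traffic had the following calls, where 18.8% of all listed genes fell and 38.0% rose. Among 10 listed solute carriers 4 fell and 0 rose at an adjusted p under 0.05 by DESeq2, and 3 were listed with a positive value at an unadjusted p under 0.05. The authors' deposited table gives −0.86 for the glutamate transporter Slc1a3, −0.76 and −0.74 for the bicarbonate transporters Slc4a4 and Slc4a10, and −0.75 for the amino acid transporter Slc43a2. The highest value of a solute carrier there was 0.49 for Slc18b1, at an adjusted p of 0.0974. Of 15 listed small GTPases and their regulators 5 fell and 2 rose. Rab3il1 and Rab36 (−0.90) had the lowest values of the called genes in the authors' deposited table, followed by the Cdc42 effector kinase Cdc42bpg (−0.57), Rab1b of transport from ER to Golgi (−0.52) and the GTPase-activating protein Arhgap1 (−0.50). Rap2b (0.65) and Tbc1d31 (0.54) rose there. In the trafficking and lysosome list, which shares Rab36, Rab3il1, Rab1b and Syt3 with others, 6 fell and 3 rose. The 3 that rose in the authors' deposited table were the vacuolar ATPase subunits Atp6v0e (0.57) and Atp6v1c1 (0.49) and the sorting nexin Snx3 (0.55).

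The transcription factor lists other than that of zinc finger and BTB proteins included several of the largest decreases. Beside Mef2c, Tcf24, Rorb and Ebf1, the authors' deposited table gives −0.78 for Gata6, known from the sebaceous duct and upper follicle, −0.76 for the grainyhead-related Tfcp2l1, −0.75 for the membrane-bound Creb3l1 and −0.65 for the POU factor Pou6f1. The chromatin-bound Hmga1 (−0.59), the aryl hydrocarbon receptor Ahr (−0.54) and the LIM domain protein Lmo7 (−0.44) also fell in the authors' deposited table. Sox21 rose, as did the nucleosome-binding Hmgb2 (0.53) and Hmgn1 (0.49), in the authors' deposited table. Hoxa3 (−0.52) and Sox6 (−0.66) were listed there with negative values and were not called.

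Zinc finger proteins were called in both directions. Of 22 listed genes of zinc finger and BTB proteins, 10 rose and 2 fell, where 38.0% and 18.8% of all listed genes did. The median over the 22 genes was 0.51 in the authors' deposited table, against 0.41 over all 597. After Peg3 the highest values there were 0.76 for Zfp975, 0.76 for Zfp72, 0.73 for Zfp322a and 0.67 for Zfp760. Zfp72, Zfp322a and Zfp874a (0.60 in the authors' deposited table) lie on chromosome 13. Zfp750, a regulator of epidermal differentiation, fell (−0.80), as did the p53-binding Zfp385a (−0.56), in the authors' deposited table. Klf10, a TGF-beta-inducible early gene, rose by 0.57 in the authors' deposited table, beside Gadd45b (−0.61) and Btg1 (0.44), which were not called.

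Chromatin genes were few. The authors' deposited table has the histone variant H2afv (0.70) and Morf4l2, a subunit of the NuA4 acetyltransferase complex (0.44), higher. It has Phf1, a Polycomb-associated reader of methylated histone H3 (−0.63), and H3f3b, which encodes histone H3.3 (−0.44, deposited mean 13896), lower. Phc1, a Polycomb subunit, had −0.59 in the authors' deposited table and was not called. Of 3 listed imprinted genes Peg3 alone was called, and Ube3a (−0.52) and Rasgrf1 (−0.59) had negative values in the authors' deposited table.

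Genes of RNA handling and protein turnover had calls in both directions, and of all called genes 67.0% rose. Of 15 listed RNA processing genes 5 rose and 2 fell. The authors' deposited table gives 0.59 for Polr1c, shared by RNA polymerases I and III, 0.55 for Hnrnpc and 0.48 for the splicing factor Luc7l3, against −0.73 for Celf3 and −0.43 for Zc3h7b. Of 14 listed proteasome and ubiquitin genes 7 rose and 2 fell, with 0.73 for Rnf182, 0.67 for Rnf7, 0.63 for Klhl21 and 0.57 for the proteasome subunit Psmd6, against −0.72 for Klhl5 and −0.57 for Socs6, in the authors' deposited table. Division genes were 3 in the list, of which Rrm2 (0.69) and the checkpoint protein Bub3 (0.47) rose and the condensin subunit Smc4 (0.49) was not called in the authors' deposited table.

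**Figure D3:**
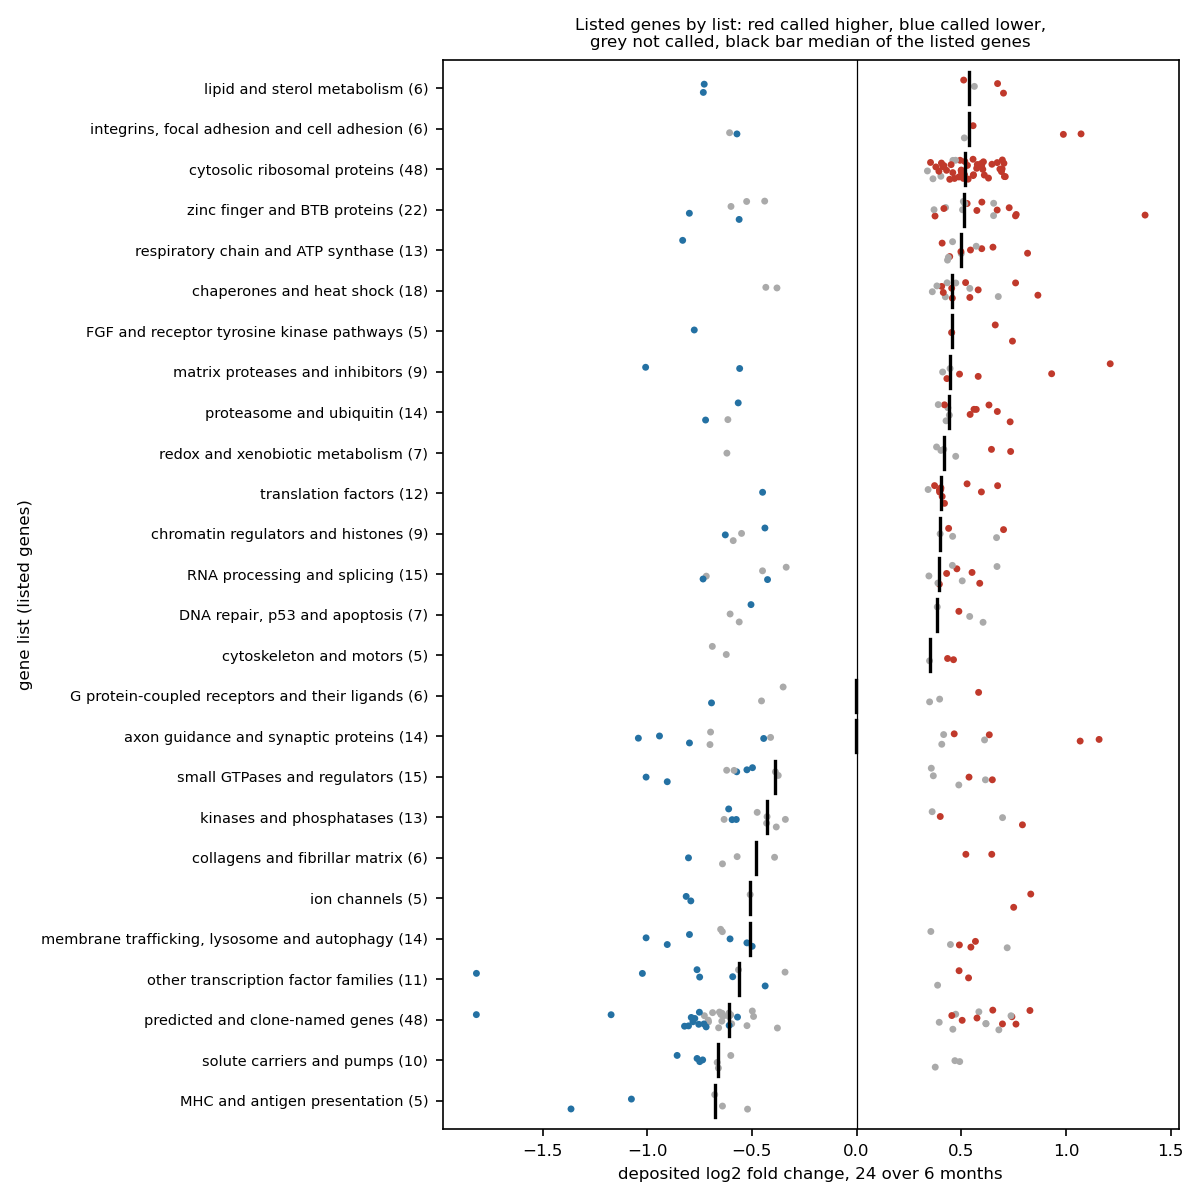
Each point is a listed gene at its deposited log2 fold change (24 over 6 months), in lists with at least 5 listed genes (1 list of unrelated symbols is not drawn); the number of listed genes is in brackets and the black bar is their median. Ribosomal proteins lie wholly to the right of 0, genes of MHC and antigen presentation wholly to the left, and the other transcription factors reach −1.82 with Mef2c.

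Markers of the cell types that a sort from skin could hold were looked for next. Since the table gives no level of a gene that is not listed, a count of 0 does not show whether a cell type was present. Of 35 markers of the bulge 3 were listed: Igfbp5 fell, and Nfatc1 (−0.34), a quiescence factor, and Ptn (0.45), a heparin-binding growth factor, were not called in the authors' deposited table. Of 27 markers of hair germ and hair shaft, Sox21 and Ptch1 were listed, and both rose. Of 17 markers of the interfollicular epidermis, 12 of melanocytes, 9 of adipocytes and 15 of T cells, 0 were listed. Of 23 markers of infundibulum, isthmus and sebaceous gland, Gata6 fell and Atp6v1c2 (−0.64 in the authors' deposited table) was not called. Of 23 markers of macrophages, dendritic and Langerhans cells, Cd74 fell and H2-Eb1 (−0.64 in the authors' deposited table) was not called, and the other 21 were not listed. All 5 listed genes of MHC and antigen presentation, Cd74 included, had negative values, and 2 of them fell. H2-Q5 (−0.68) and H2-Q4 (−0.52) were not called in the authors' deposited table, and their near-identical copies make the split of reads uncertain. Markers of stroma were listed with negative values that were not called, Crabp1 (−0.64) and Col1a2 (−0.39) of 17 fibroblast genes and Acta2 (−0.69) of 15 vascular and muscle genes, as was Mbp (−0.56) of 15 Merkel and neural genes, in the authors' deposited table. Of 16 markers of B cells, mast cells and erythrocytes, Ebf1 alone was listed, and it fell. The part of these cell types in the decreases of Tnxb and Smoc2, also known from stromal cells, and of Ebf1, known from B cells and from stroma, was not tested. Krt16, a keratin of activated epidermis, rose by 0.75 in the authors' deposited table.

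Clone-named and predicted genes were the other large group, with 48 listed, 13 that fell and 8 that rose. The most abundant was Gm26917, with a deposited mean of 19678 normalized counts, a log2 fold change of −1.82 (SE 0.17) and an adjusted p listed as 0 in the authors' deposited table. It lies at chr17:39843013-39846341 by the gene annotation in the authors' deposited H3K27me3 table. That is 12 bp from Rn18s-rs5, a gene named for 18S ribosomal RNA, as placed in RefSeq (GRCm38.p6). The H3K27me3 peak that covers it, chr17:39842997-39848829, also covers Rn18s-rs5 and ranks 1 in level among 67985 peaks, at a log2 level of 16.58 in young and 15.70 in old samples in the authors' deposited table. Whether ribosomal RNA contributes to the reads of Gm26917, and its part in other changes, was not tested.

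The chromatin data allow a comparison with readouts that the listing of RNA genes did not use, and whose direction is fixed by columns named for young and old. H3K4me3, the mark of active and poised promoters, was lower in old cells at nearly all promoters. Of 498 H3K4me3 promoter peaks (within 1 kb of a start site) at listed genes, 477 were called lower by the deposited DiffBind FDR under 0.05, where 94.3% of all promoter peaks were, and 0 higher, where 0.037% of all were; at an unadjusted p under 0.05 the count of genes with a higher peak was also 0. The median over 457 listed genes was −1.42 on the log2 scale, against −1.43 over all promoters, in the authors' deposited table. The sources used here do not give the normalization on which this common decrease depends, and so the rank of a gene among all 12158 genes with a peak is given beside its value. For a gene with several peaks, the peak with the highest level was taken.

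Several of the largest RNA increases stood at promoters among those whose H3K4me3 fell most. At Peg3 the log2 level was 10.13 in young and 7.49 in old samples, a difference of −2.64 (FDR 6.83e-14) at percentile 1.04 of all genes, in the authors' deposited table. At Sox21 it was 12.96 and 10.44 (−2.52, percentile 1.29), and at Igsf9b 9.00 and 6.49 (−2.51, percentile 1.33), in the authors' deposited table. Cpa4 (−2.20, percentile 2.41) and Hhip (−2.08, percentile 3.20) followed in the authors' deposited table. Of the 15 genes with the largest RNA increases 13 had an H3K4me3 promoter peak, with a median difference of −1.89, and 8 of the 13 were among the lowest 10% of genes. The exception at the other end was Tspan8, whose weak peak changed by −0.13 (FDR 0.860) in the authors' deposited table.

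Several of the largest RNA decreases stood at promoters among those whose H3K4me3 differed least. At Mef2c the log2 level was 9.58 in young and 9.05 in old samples (−0.52, FDR 0.162, percentile 98.5), at Tcf24 10.23 and 9.87 (−0.35, FDR 0.293, percentile 98.8) and at Rorb 9.56 and 8.72 (−0.84, FDR 0.208, percentile 97.3), in the authors' deposited table. Timp3 was called lower at −0.84 (FDR 0.00488) in the authors' deposited table, at the same percentile as Rorb. Of the 15 largest RNA decreases 9 had a peak, with a median of −1.04, and 5 of the 9 were among the highest 10% of genes and 0 among the lowest. Over all called genes the medians were close, −1.42 for 181 genes that rose and −1.40 for 82 that fell. Across all 457 genes Spearman's correlation between the RNA and H3K4me3 differences was −0.04, so the pattern of the genes with the largest RNA changes did not extend along the whole list. In this and the following correlations the points are genes of the same libraries, and the RNA values form 2 clouds because small changes were not listed.

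H3K27me3, the repressive mark of Polycomb, covered promoters of 66 listed genes. Of 101 promoter peaks there, 18 were called lower in old cells and 4 higher by the deposited FDR, where 9.19% of all promoter peaks were called lower and 3.14% higher. Among 18 genes whose RNA fell, 8 had a called decrease and 1 a called increase of the mark, and the median difference was −0.89 against −0.11 over all genes, in the authors' deposited table. Over all 6209 genes with such a peak, 696 had a called decrease and 163 a called increase. The largest such decreases in the authors' deposited table were at Timp3, from 9.10 to 6.25 (−2.85, FDR 2.86e-05), and at Tcf24, from 9.57 to 7.31 (−2.26, FDR 6.71e-29). Espn, an actin-bundling protein whose RNA value was −0.85, went from 10.20 to 8.59 (−1.61) and Tnxb from 10.79 to 9.59 (−1.20) in the authors' deposited table. Slc1a3 (−1.17), Rorb (−1.12), Slc4a4 (−0.89) and Gm26917 (−0.88) were called lower too, in the authors' deposited table. At Mef2c the peak went from 6.08 to 4.43 with an FDR of 0.0863 in the authors' deposited table and was not called. The gene called higher was the clone-named 4930590J08Rik (0.70). The 8 genes with a called decrease had less RNA and less H3K27me3 in old cells, and the other 10 of the 18 had no called decrease. The 8 include Gm26917, whose peak also covers Rn18s-rs5. The 10 include Gm10800, whose peak went from 12.42 to −0.12 (−12.54) without being called and is part of the median.

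Among 21 genes whose RNA rose, the median H3K27me3 difference was −0.03, with 0 genes called lower and 1 called higher by the deposited DiffBind FDR (at an unadjusted p under 0.05, 4 lower and 1 higher). The 1 called higher was Kcnn3, from 8.92 to 9.48 (0.56, FDR 0.0272) in the authors' deposited table. Sox21, with a broad peak of 32124 bases, differed by −0.20 (FDR 0.456), Nptx1 by −0.03 (FDR 0.938) and Hhip by −0.47 (FDR 0.174) in the authors' deposited table. Larger decreases that were not called included Ptch1 (−1.15, FDR 0.236) and Pde4b (−0.82, FDR 0.0761) in the authors' deposited table. Of the 21 genes, 4 were among the lowest 10% of genes and 1 among the highest. Spearman's correlation between RNA and H3K27me3 differences was 0.51 over the 66 genes. Pol2, with promoter peaks at 175 listed genes, was called lower at 145 of 188 promoter peaks, where 79.1% of all were, and higher at 0, where 0.0% of all were (0 genes also at an unadjusted p under 0.05 by DiffBind). Its median was −2.13 against −2.36 over all genes, and the RNA and Pol2 differences had a Spearman's correlation of −0.01. The median Pol2 difference was −2.05 over the 90 genes whose RNA rose and −2.05 over the 16 whose RNA fell. Of the 90 genes, 5 were among the lowest 10% of genes with a Pol2 promoter peak and 11 among the highest. Named genes of the 90 were Peg3 (−1.87, percentile 76.0), Cpa4 (−2.40, percentile 47.8), Hsph1 (−3.27, percentile 15.7) and Epha4 (−3.96, percentile 7.11), in the authors' deposited table.

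**Figure D4:**
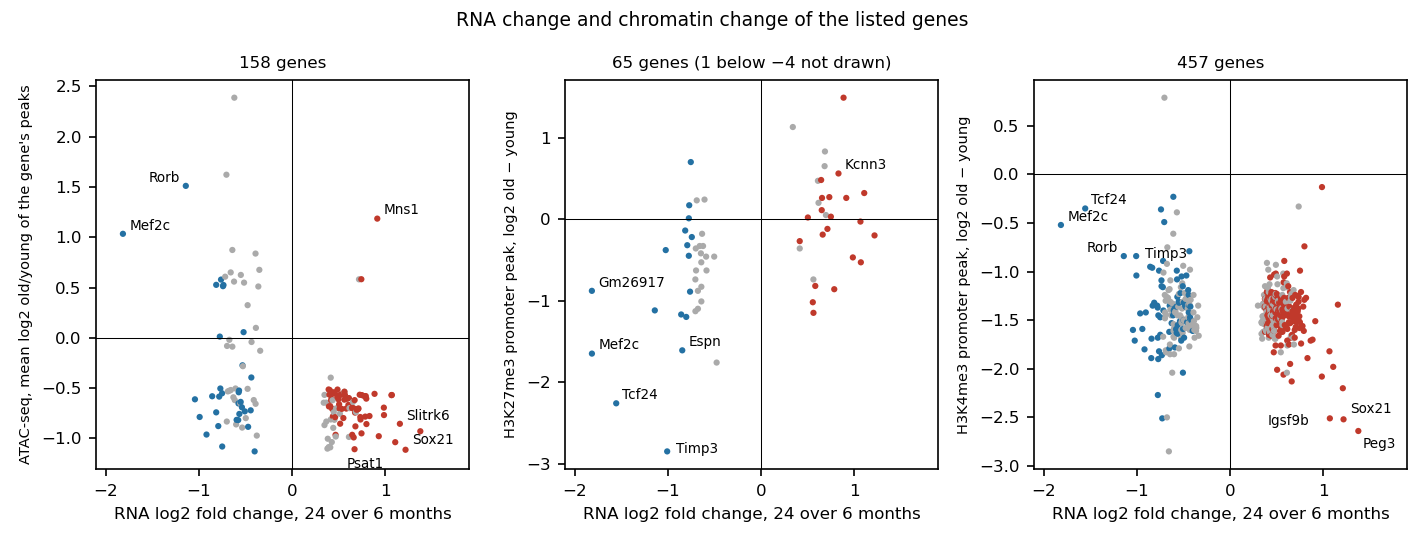
Horizontal axes give the deposited RNA log2 fold change (24 over 6 months), and vertical axes the change of ATAC-seq counts (left), H3K27me3 (middle) and H3K4me3 (right) on the log2 scale, 1 point per gene, red where RNA was called higher, blue where lower and grey where not called. In the left and right panels Sox21 lies at the lower right and Mef2c at the upper left. In the middle panel Timp3 and Tcf24 lie at the lower left, and Gm10800, at an H3K27me3 difference of −12.54, is not drawn.

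Accessibility was the only readout with values per library. The deposited ATAC-seq table holds 7849 peaks, every one with an absolute log2 ratio of at least 0.5 and a −log10 p of at least 2 between the same libraries, so it is a selection of peaks that differ, and p-values computed on it are too small to read as evidence that a peak differs. It annotates 313 peaks to 158 listed genes, each peak to its nearest gene. Of these, 268 (85.6%) had a lower mean count in old libraries, near the 85.9% of all peaks. The share was 98.0% for the 150 peaks at genes whose RNA rose (147 lower, 3 higher). At genes whose RNA fell 14 of 61 peaks were higher and 47 lower, where 14.1% of all peaks were higher. Genes share peaks of 1 neighbourhood, so peaks are not independent. The mean change per gene and the RNA change had a Spearman's correlation of −0.34 over the 158 genes.

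The number of calls depended on scaling. With TMM scaling, edgeR called 5 of the 313 peaks lower and 44 higher, where 0.701% and 13.9% of all peaks were. Without scaling it called 147 lower and 25 higher, where 46.4% and 5.43% were. Leaving out old replicate 3 took the unscaled calls to 71 lower and 13 higher, leaving out young replicate 3 to 81 and 16, and leaving out old replicate 4 took the lower calls to 91. The peaks named next were called in the same direction with both scalings, as 6.13% of all peaks were, unless stated otherwise. The counts given for them are unscaled, and all listed peaks were selected for a difference between these same libraries. Groups that do not overlap are therefore no separate evidence of a change. The share of all listed peaks without overlap was not computed.

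Mef2c had 5 listed peaks, all higher in old libraries. At the peak chr13:83524501-83525050, the 4 young libraries held 124, 172, 122 and 153 reads and the 4 old ones 342, 298, 393 and 220. This peak lies downstream of the promoter printed above and shares no base with it. The groups did not overlap (143 ± 24.1 against 313 ± 73.3, mean ± SD, n = 4 each). At the Rorb peak in an exon, chr19:18959901-18960450, young libraries held 121, 169, 35 and 97 reads and old ones 362, 424, 242 and 175, again without overlap. The promoter peak of Piwil2, a germline Piwi protein whose RNA value was −0.74 in the authors' deposited table, held 676, 715, 716 and 660 reads in young and 1079, 939, 1007 and 925 in old libraries. These groups did not overlap either (692 ± 28.2 against 988 ± 70.7, SD, n = 4 each). Tfcp2l1 (453 ± 89.1 against 676 ± 80.9, SD, n = 4 each) and Smoc2 (258 ± 75.4 against 467 ± 51.2, SD, n = 4 each) also had a peak with more reads in every old library than in any young one.

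At genes whose RNA rose, most of the named peaks had lower unscaled counts, as 85.9% of all listed peaks had. With TMM scaling, 4 of the 150 peaks at genes whose RNA rose were called lower and 3 higher. Sox21 had 6 listed peaks, all with lower means in old libraries. Its promoter peak, chr14:118236201-118237650, which contains the promoter printed above, held 2030, 2130, 2126 and 1938 reads in young and 1379, 1081, 1289 and 1133 in old libraries, without overlap. It was called lower only without scaling (FDR 0.00410, against 0.917 with TMM scaling). The peaks of Sox21 and of Slitrk6 were not called with both scalings. Slitrk6 had 11 listed peaks, all with lower means, and 10 of them were annotated as distal. Its promoter peak held 549, 358, 634 and 756 reads in young and 467, 323, 298 and 311 in old libraries, and these groups overlapped. Distal peaks of Ntrk2 (719 ± 87.9 against 252 ± 90.2, SD, n = 4 each), Psat1 (265 ± 93.6 against 73.8 ± 33.4, SD, n = 4 each) and Pappa (368 ± 53.8 against 127 ± 38.1, SD, n = 4 each) were lower with both scalings and did not overlap. Their annotated distances to the start site were 348570 (Ntrk2), 405712 (Psat1) and −38924 bases (Pappa). A link between these peaks and the genes was not tested. Mns1, a protein of motile cilia, and Tgfa were the exceptions. The Tgfa peak held 320, 451, 545 and 408 reads in young and 683, 552, 569 and 778 in old libraries, without overlap. The exonic Mns1 peak held 20, 22, 44 and 16 against 70, 40, 52 and 70, and its groups overlapped.

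**Figure D5:**
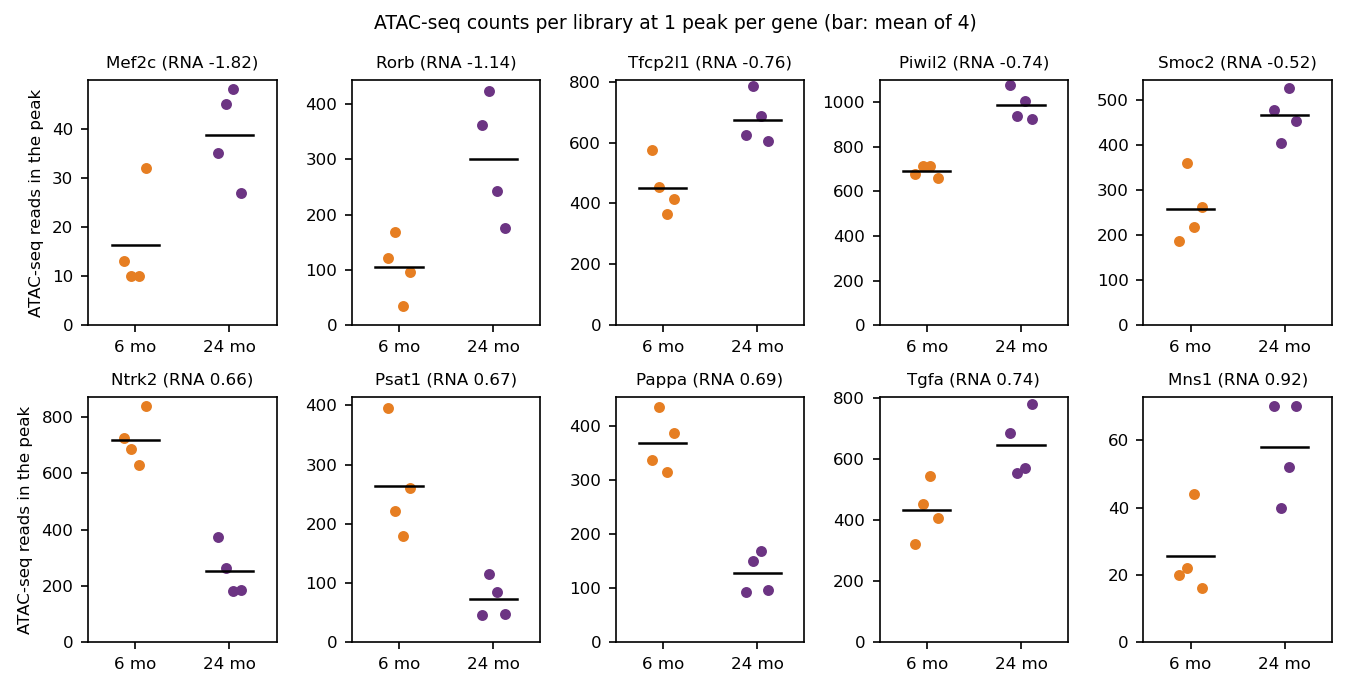
Reads per library in the named ATAC-seq peak with the largest change of each gene, 4 libraries at 6 months in orange and 4 at 24 months in purple, with the mean as a bar; each vertical axis starts at 0, and the RNA log2 fold change is in each title. The 5 genes of the upper row had lower RNA and more reads in old libraries, Ntrk2, Psat1 and Pappa had higher RNA and fewer reads, and Tgfa and Mns1 had higher RNA and more reads.

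Set side by side, the 15 largest RNA changes in each direction gave these counts. Of the 15 largest increases, 12 had listed ATAC-seq peaks: at 11 of them, among these Peg3, Sox21, Igsf9b and Hhip, all peaks had lower means in old libraries, and at Mns1 the 1 peak was higher. As given above, 85.9% of all listed peaks were lower, as were 147 of the 150 peaks at all genes whose RNA rose. These are counts of peaks, not of genes, and lower means were thus not particular to the largest increases. Of the 15 largest decreases, 4 had listed peaks, which were all higher at Mef2c (5 peaks) and Rorb (1) and all lower at Sema3d (2) and Skint3 (1). H3K4me3 differences were negative at every gene of both sets that had a promoter peak, from −2.64 to −0.13 among the increases and from −1.71 to −0.35 among the decreases, so only their rank among promoters differed in direction. The RNA sign rests on 1 header, whereas the chromatin signs rest on columns named for each age. Were the RNA header reversed, every RNA direction given above would be reversed with it, and the table offers no targeted gene or per-sample value against which to check it.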

How the data were processed

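The submitters' processing notes name STAR 2.5.2b, the build GRCm38.p5, featureCounts and DESeq2 1.22.2 for the RNA libraries. For each gene the deposited RNA table gives a mean normalized signal, a log2 fold change with its SE, a Wald score, p-values and adjusted p-values, per the file headers; the sources used here do not say whether the fold changes were shrunken. For ATAC-seq the authors deposited whole counts of each library in each peak, with a log2 ratio and a −log10 p, per the file headers (BWA 0.7.12, per the submitters' processing notes). The deposited ChIP-seq tables hold log2 levels and their difference, p-values and FDR per peak, per the file headers (BWA 0.7.15, MACS2 2.2.7.1 and DiffBind 2.14.0 on GRCm38, per the submitters' processing notes), and their young-minus-old differences were turned to old minus young. RNA and ChIP-seq tables have no values per sample, so the authors' tests were used, with a threshold of 0.05.

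ATAC-seq counts were tested with edgeR 4.0.16 in R 4.3.3 (quasi-likelihood F-test, filterByExpr, TMM scaling, two-sided, Benjamini-Hochberg over all 7849 peaks), and again without scaling. The scripts were tested on simulated data. No peak was filtered out. Totals over the listed peaks ran from 2456110 to 2773284 counts in young and from 1572998 to 1946804 in old libraries; these are sums over a selected list, not library depths. Libraries of a group differed by more than sampling noise (chi-square per degree of freedom of at least 10.8). The design text calls the samples biological replicates.

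Genes were sorted into 50 functional lists and 12 marker lists by symbol. The members and lists were chosen with earlier results of these data known, 18 genes were taken out of a list by name after the listed genes were seen, and Rps3a1 was added to the ribosomal proteins. Genes were named if they were among the 15 largest called changes each way, the 4 largest called changes each way of a list (all members where a list had at most 4), the 5 called genes each way with the highest mean, the 6 each way with a called peak per assay, or the 3 nearest each side of the threshold; others are said to be named later or to stand outside. Promoters and gene spans came from RefSeq (GRCm38.p6); Python 3.11.15, pandas 2.3.3 and matplotlib 3.10.9 were used. Alternatives are given in the closing section. Some listed genes that the naming rule selects are not reported here.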

Additional observations from a re-analysis of the deposited data

Results flagged for a closer look

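In 40 groups of 4 ATAC-seq libraries at peaks of named genes, 1 library lay far from the other 3 in 2 groups; about 1 group in 20 is marked so by chance. At the Sox21 peak chr14:118228051-118228500, old replicate 2 held 63 reads, against 127, 128 and 125 in the other old libraries (gap over range 0.954). At the Mef2c peak chr13:83532201-83532300, young replicate 4 held 32 reads, against 13, 10 and 10 in the others (gap over range 0.864), and this library is the reason why the young and old counts of that peak overlap.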

How the results depend on the processing

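Of 62 counts under alternatives, 44 stayed within 1.5 times of the reported count. An adjusted p under 0.01 left 81 genes that rose and 32 that fell, and counting all listed genes gave 361 and 236. At ATAC-seq peaks of listed genes, no scaling gave 147 lower and 25 higher calls, against 5 and 44 with TMM scaling, so the direction with more calls turned round. TMM scaling centres the change that most selected peaks share, so neither setting gives the absolute direction of a peak. Leaving out 1 library gave 4 to 7 lower and 42 to 44 higher calls with TMM scaling, and 71 to 135 lower and 13 to 23 higher without. Replicate numbers did not pair the ATAC-seq libraries: correlations of same-numbered deviations ran from −0.189 to 0.0349, and 0 of 4 young libraries correlated best with their own number. A replicate block gave 6 lower and 45 higher calls with TMM scaling, and 51 and 13 without. The fits without scaling that left out a library or had the block were chosen after seeing the data. DESeq2 with its own size factors called 7 peaks lower. Taking all annotated peaks in place of promoter peaks gave 49 lower and 30 higher H3K27me3 calls and 1 higher H3K4me3 call. At an FDR under 0.01, 2 H3K27me3 promoter peaks were higher and 84 Pol2 promoter peaks lower. The RNA and ChIP-seq results could not be recomputed without single samples, because those tables hold no values per sample, and no paired fit of them was possible for the same reason. RNA depth is unknown, and with 3 samples per age a gene outside the list cannot be read as equal between ages.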

Other observations

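Genes that fell spanned more of the genome than genes that rose. The median RefSeq span was 29.2 kb for 101 of the 112 genes that fell and 12.2 kb for 218 of the 227 that rose, against 17.1 kb for all protein-coding genes. With ribosomal proteins, whose listed members had a median of 3.14 kb, left out, the genes that rose had 17.1 kb. By chromosome, chromosome 13 held 14 genes that rose and 1 that fell (Mef2c), chromosome 19 held 4 and 7, and the X chromosome 12 and 2. Over all chromosomes 227 rose and 112 fell. The other chromosomes are not given here, and the number of genes tested on each is unknown. No test was made of these counts.

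Called genes outside every list included several of nuclear transport and of the centrosome. The authors' deposited table has Kpna2, an importin alpha, at 0.78, the GTPase Ran at 0.55 and the nucleoporin Nup43 at 0.66, all higher in old cells. It also has the centrins Cetn2 at 0.55 and Cetn3 at 0.69 and the dynein light chain Dynll1 at 0.63. Lower in the authors' deposited table were Fhod3, a formin, at −0.92, Espn at −0.85 and Baiap2, a membrane-bending adaptor of actin, at −0.55. These genes were picked after their values were seen.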
